A study of Homo sapiens with 3 samples.

Results

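The genes described here are the receptors EGFR, ERBB2 and ERBB3, the ligands HBEGF, AREG, EREG, TGFA and NRG1, and the receptor inhibitor ERRFI1, in A375 cells, an established human melanoma line that grows attached to the dish. Members were all array probes whose annotated gene symbol was 1 of these 9 names. The rule found 22 probes for 8 genes, among 20046 genes and 47323 probes on the array; no probe carried the AREG symbol in the annotation used, so AREG was not analysed here. Total RNA was hybridised to Illumina expression arrays, 1 array per state: cells given 1 day to reattach on a culture dish in fresh medium after suspension, cells kept in suspension on sterile plastic dishes, and adherent cells. All 3 states were the same line, carried no engineered allele or added agent according to the labels, and grew in DMEM with 10% serum and antibiotics, so growth factors of serum were present in each. The sources used here give neither the time in suspension nor the number of cultures behind each RNA. With 1 array per state there is no spread between replicates, no test was made, and every difference below is between single arrays.

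Ligands of this family are made as membrane-anchored precursors that metalloproteases and other membrane proteases cut to release a soluble growth factor. HBEGF, TGFA, EREG and AREG bind EGFR, and some of them also bind ERBB4, whereas NRG1 binds ERBB3 and ERBB4. Bound receptors pair with each other, ERBB2 being the preferred partner with no known ligand of its own, and signal through ERK and phosphoinositide 3-kinase. The NRG1 and ERBB3 pair is known for its role in the neural crest and the pigment cell lineage from which melanoma arises.

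A probe was called detected where its detection p-value, the share of negative controls at least as bright, was under 0.01. By this measure 35.6% of the probes were detected in reattached, 36.9% in suspended and 37.5% in adherent cells. Of the 22 member probes, 11 were detected on all 3 arrays and 13 on at least 1, and the other 9 (5 of NRG1, 2 of EGFR and 2 of ERBB2) were detected on none, with scanner signals of 36.2 to 65.5. The 7 genes detected on every array were EGFR, ERBB2, ERBB3, HBEGF, TGFA, NRG1 and ERRFI1. Levels below are background-corrected, quantile-normalized log2 intensities, and probes of different genes are not ranked against each other since each has its own brightness. For the spread of differences over all genes detected on both arrays, the SD was 0.30 on the log2 scale for suspended minus adherent, 0.22 for reattached minus suspended and 0.22 for reattached minus adherent. Dim genes spread more: for suspended minus adherent the SD was 0.36 below a mean log2 level of 7 and 0.27 at or above it, a division chosen after the data were seen.

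**Figure D1:**
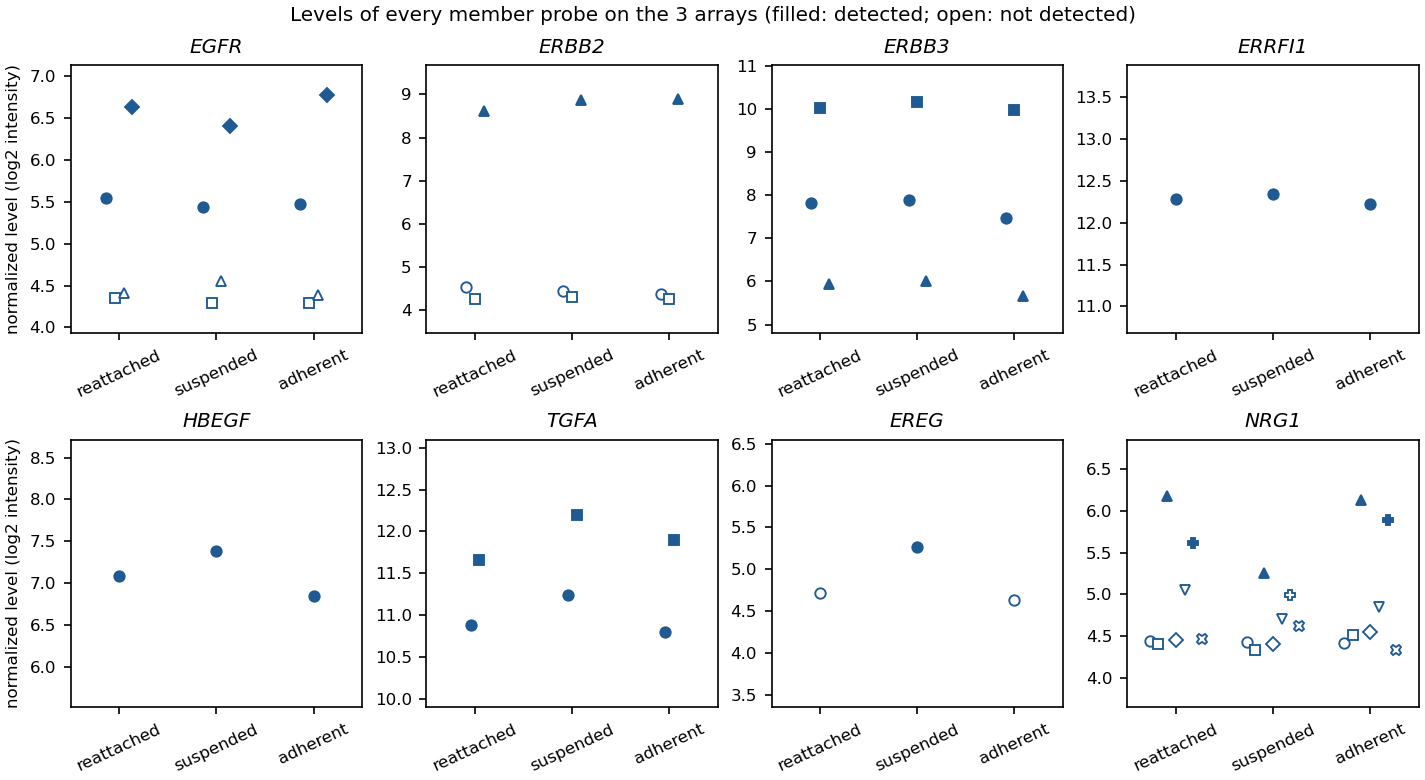
Normalized log2 level (vertical axis, log2 intensity) of each of the 22 member probes in reattached, suspended and adherent cells; each marker shape is 1 probe of the gene, filled where detected and open where not, and the vertical span is wider for ERBB2 and ERBB3. Each point is a single array. HBEGF and both TGFA probes are highest in suspended cells, EREG is detected there only, and the NRG1 probes with filled points are lowest there.

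Of the ligands that bind EGFR, HBEGF and TGFA had their highest value on the suspended array, each under 1.5-fold in every comparison. HBEGF, the heparin-binding ligand that also serves as the diphtheria toxin receptor, had scanner signals of 161 in reattached, 215 in suspended and 147 in adherent cells, and log2 levels of 7.08, 7.38 and 6.85 in the same order. The suspended array was the highest and the adherent array the lowest. HBEGF was 1.45-fold higher in suspended than in adherent cells (log2 difference 0.53), and 2.55% of genes in its level class, those with a mean log2 level of 7 or more, lay as far up or farther. Its mean level, 7.10, is just above that division, and the share was 5.15% among genes below it and 3.30% over genes of all levels. It was 1.23-fold lower in reattached than in suspended cells (-0.30) and 1.17-fold higher in reattached than in adherent cells (0.23), so that after 1 day it lay between its suspended and adherent levels. Since HBEGF has 1 probe, no second probe checks these values.

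TGFA, transforming growth factor alpha, is a ligand of EGFR with 2 probes, both detected on all arrays. The probe with the higher mean level, ILMN_2083946, had signals of 3031 in reattached, 5032 in suspended and 3784 in adherent cells. The other, ILMN_1805175, had 1808 in reattached, 2646 in suspended and 1782 in adherent cells. On both probes the suspended array was the highest, while the reattached and adherent arrays changed places between the probes. Log2 differences were 0.30 and 0.44 for suspended minus adherent, in the same probe order, and -0.54 and -0.35 for reattached minus suspended. TGFA was 1.46-fold lower in reattached than in suspended cells by the first probe and 1.28-fold lower by the second. For reattached minus suspended, 0.813% of the genes in its level class lay as low or lower than the first probe, 59 of 7254. The share was 1.34% over genes of all levels. For suspended minus adherent, 9.28% of its class lay as high or higher than the first probe. For reattached minus adherent, 7.87% lay as low or lower. No share was computed for the second probe. For reattached minus adherent the probes gave -0.24 and 0.09, opposite in sign.

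EREG, epiregulin, is a further EGFR and ERBB4 ligand, and its single probe was detected in suspended cells only. Its signals were 57.7 in reattached, 76.3 in suspended and 56.1 in adherent cells, with detection p-values of 0.105, 0.00649 and 0.174. The suspended array was the highest but stood just above the detection limit. The measured log2 levels, 5.27 in suspended and 4.64 in adherent cells, differ by 0.63, but the adherent value is not well above background, and set against that array's detection limit (the level of its dimmest detected probe, 5.13) EREG was at least 1.10-fold higher in suspended cells. Against reattached cells no fold can be given, because the suspended level lay under the detection limit of the reattached array, 5.29.

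The promoter windows of these ligand genes are shown because HBEGF and TGFA had their highest level on the suspended array and EREG was detected on that array alone. Each window runs 5′ to 3′ on the gene's strand, from 250 bases before the annotated gene start to 50 bases after it, from RefSeq on GRCh38.p14. All 3 genes matched by symbol. They are chr5:140346554-140346853 on the minus strand for HBEGF, chr2:70553777-70554076 on the minus strand for TGFA and chr4:74364895-74365194 on the plus strand for EREG. Capitals mark every match, on either strand, to 8 motifs searched: AP-1 (TGANTCA), a CRE half-site (TGACGT), TEAD (GGAATG), the GC box (GGGCGG), the TATA box (TATAAA), EGR (GCGNGGGCG), NF-kB and the SRF CArG box.
HBEGF: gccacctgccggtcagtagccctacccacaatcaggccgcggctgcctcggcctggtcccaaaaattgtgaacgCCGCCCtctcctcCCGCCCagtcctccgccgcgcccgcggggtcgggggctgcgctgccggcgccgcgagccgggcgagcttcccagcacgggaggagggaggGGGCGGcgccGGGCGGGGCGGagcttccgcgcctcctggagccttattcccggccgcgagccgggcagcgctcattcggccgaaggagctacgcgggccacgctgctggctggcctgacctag
TGFA: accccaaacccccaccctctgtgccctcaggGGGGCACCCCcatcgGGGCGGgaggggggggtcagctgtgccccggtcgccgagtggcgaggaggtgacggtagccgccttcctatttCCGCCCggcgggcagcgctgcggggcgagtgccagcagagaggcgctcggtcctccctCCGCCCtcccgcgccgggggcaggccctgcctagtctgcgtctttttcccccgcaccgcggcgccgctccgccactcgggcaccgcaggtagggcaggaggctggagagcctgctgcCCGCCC
EREG: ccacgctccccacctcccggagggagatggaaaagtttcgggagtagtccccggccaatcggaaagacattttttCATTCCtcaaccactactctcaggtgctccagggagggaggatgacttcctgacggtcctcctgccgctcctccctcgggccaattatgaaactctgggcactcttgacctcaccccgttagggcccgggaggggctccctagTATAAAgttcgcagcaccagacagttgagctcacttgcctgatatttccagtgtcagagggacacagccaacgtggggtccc

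Sequence divided the 3 windows by composition. HBEGF held 5 GC boxes and TGFA held 4, with 75% and 75.3% G or C, and GC boxes occurred in 45% of all 35116 promoter windows of this length. The TGFA window also held 1 NF-kB match, starting at -219 from the gene start, a motif found in 5.91% of windows. The EREG window had 57.7% G or C, no GC box, a TATA box at -32 (in 11.5% of windows) and a TEAD match at -175 (in 14% of windows). The EGR and GC box letters partly overlap, and none of the 3 windows held an AP-1, CRE, EGR or CArG match. A match is a run of letters and does not show that a factor binds there.

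NRG1, the ligand of ERBB3, ran the other way and was lowest in suspended cells. Its brightest probe, ILMN_1737252, had signals of 102 in reattached, 75.8 in suspended and 103 in adherent cells, with detection p-values of 0.0013, 0.00649 and 0. Reattached and adherent cells were close to each other and suspended cells were below both. The suspended level stood just above that array's detection limit of 5.18. The log2 levels were 6.17 in reattached, 5.25 in suspended and 6.13 in adherent cells, so NRG1 was 1.84-fold lower in suspended than in adherent cells (-0.88) and, in reattached cells, 1.89-fold higher than in suspended ones (0.92). Of the genes under a mean log2 level of 7, 1.19% lay as low or lower in the first comparison and 0.318%, 9 of 2829, as high or higher in the second. Between reattached and adherent cells the difference was 0.04.

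A second NRG1 probe, ILMN_1844593, had signals of 80.5 in reattached, 68.3 in suspended and 92.3 in adherent cells. It was not detected in suspended cells (detection p-value 0.0195), where NRG1 by this probe was at least 1.64-fold lower than in adherent cells, and in reattached cells it was at least 1.36-fold higher than in suspended ones. Both detected probes thus gave the lowest value in suspension, and they differed on reattached against adherent cells, 0.04 and -0.28. The other 5 NRG1 probes were not detected on any array. NRG1 is dim, and this limits its values: with background left in, its log2 difference was -0.53 for suspended minus adherent and 0.55 for reattached minus suspended, each under 1.5-fold.

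**Figure D2:**
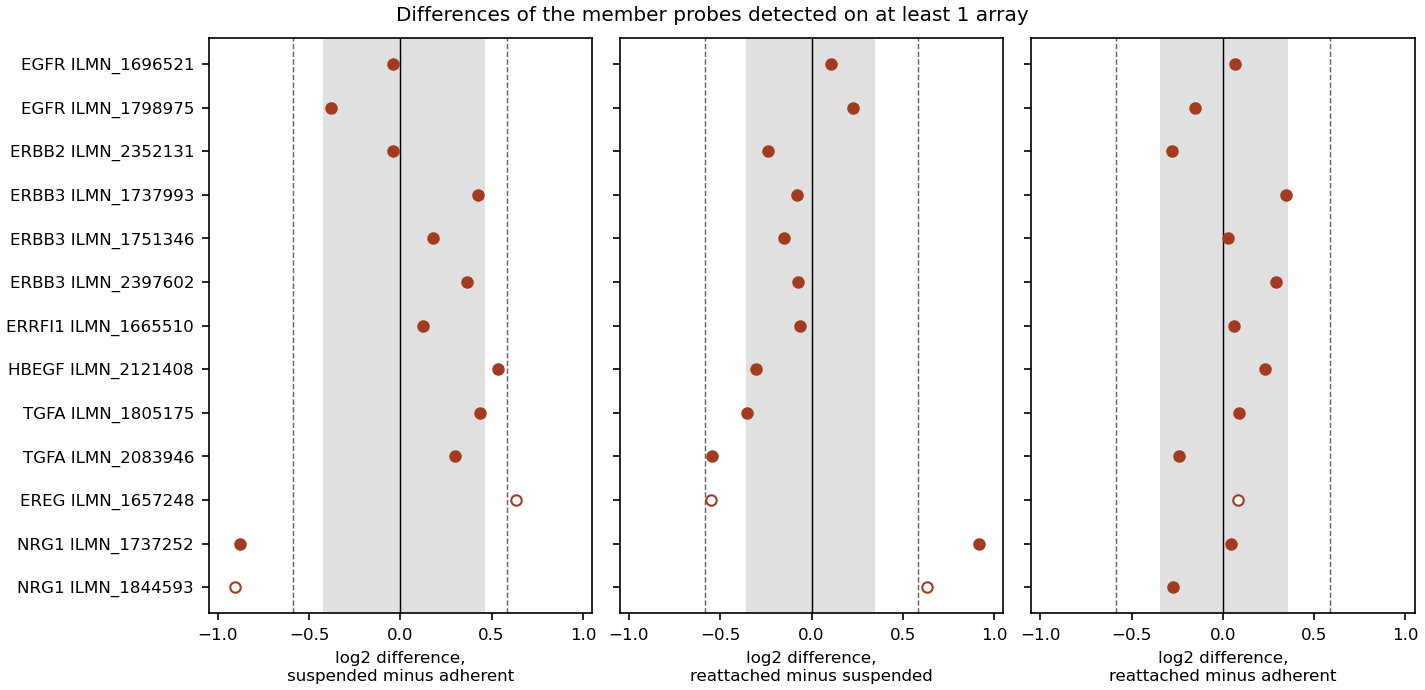
Log2 differences (horizontal axis) of the 13 member probes detected on at least 1 array, for suspended minus adherent, reattached minus suspended and reattached minus adherent. Filled points were detected on both arrays, and open points are measured differences of probes detected on fewer; the grey band runs from the 5th to the 95th percentile of all genes detected on both arrays and dashed lines mark 1.5-fold. Both NRG1 probes lie left of the line in the first panel and right of it in the second.

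No receptor probe reached 1.5-fold in any comparison. EGFR, the receptor for HBEGF, TGFA and EREG, had signals of 127.5 in reattached, 127 in suspended and 141 in adherent cells on its brightest probe, ILMN_1798975, and log2 levels of 6.63, 6.40 and 6.78 in that order. Adherent cells were the highest and suspended cells the lowest after normalization. EGFR was 1.30-fold lower in suspended than in adherent cells (-0.38), a difference that 10.9% of the genes in its level class matched or passed. A second detected EGFR probe, ILMN_1696521, gave 78.2, 81.7 and 78.1 in reattached, suspended and adherent cells and log2 differences of -0.04 for suspended minus adherent and 0.11 for reattached minus suspended. Its log2 levels, 5.54 in reattached, 5.44 in suspended and 5.48 in adherent cells, were also lowest in suspension, by much less than on the first probe.

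ERBB2, the receptor that other members pair with, was detected by 1 of its 3 probes. Its signals were 400.4 in reattached, 541 in suspended and 504 in adherent cells, and the reattached array was the lowest. The log2 difference was -0.04 for suspended minus adherent, -0.24 for reattached minus suspended and -0.28 for reattached minus adherent. At that last value ERBB2 was 1.21-fold lower in reattached cells, and 5.54% of genes in its level class lay as low or lower. 

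ERBB3, the NRG1 receptor with little kinase activity of its own, was detected on all arrays by all 3 of its probes. The brightest, ILMN_1751346, had signals of 996.5 in reattached, 1272 in suspended and 1029 in adherent cells. ILMN_1737993 had 244 in reattached, 291 in suspended and 208 in adherent cells, and ILMN_2397602 had 92.4, 105 and 83.6 in the same order. Suspended cells were the highest on each probe. For suspended minus adherent the 3 probes gave 0.18, 0.43 and 0.37, and for reattached minus suspended -0.15, -0.08 and -0.08. The value of the brightest probe was matched or passed by 19.2% of genes in its level class in the first comparison. In the second it was matched or passed by 17.3%. All 3 probes were above 0 in reattached minus adherent cells, at 0.03, 0.35 and 0.29. The gene's own ligand NRG1 was lowest in the state in which ERBB3 was highest.

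ERRFI1, also known as MIG6, is induced by EGFR signalling and binds the kinase domain of EGFR to inhibit it. Its probe, bright on all arrays, had signals of 4716 in reattached, 5590.4 in suspended and 4827 in adherent cells. The log2 levels were 12.28 in reattached, 12.35 in suspended and 12.22 in adherent cells, a range of 0.12 in all. ERRFI1 was 1.09-fold higher in suspended than in adherent cells, which 26.4% of genes in its level class matched or passed, and it had the smallest range over the arrays of the members detected on all of them, taking each by its brightest probe.

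Counted by gene, each by its brightest detected probe, 5 of 8 members lay above 0 and 3 below it for suspended minus adherent, with a median of 0.13 against 0.00 over all 10916 genes compared. At 1.5-fold, 1 member (NRG1) was lower and 0 were higher, where 2.24% of all genes were lower and 2.73% higher. For reattached minus suspended, 2 of 7 members lay above 0 and 5 below, with a median of -0.15 against 0.01 over all 10549 genes. NRG1 alone was 1.5-fold higher, against 0.834% of all genes, and 0 members were 1.5-fold lower, against 1.11%. For reattached minus adherent, 4 of 7 lay above 0, the median was 0.03, and 0 members reached 1.5-fold in either direction, where 0.91% of all genes were higher and 1.13% lower. At 2-fold there were 0 members in any comparison, where 1.16% of all genes reached it for suspended against adherent, 0.322% for reattached against suspended and 0.142% for reattached against adherent. Each pair of comparisons shares an array, so their values are not independent of each other.

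**Figure D3:**
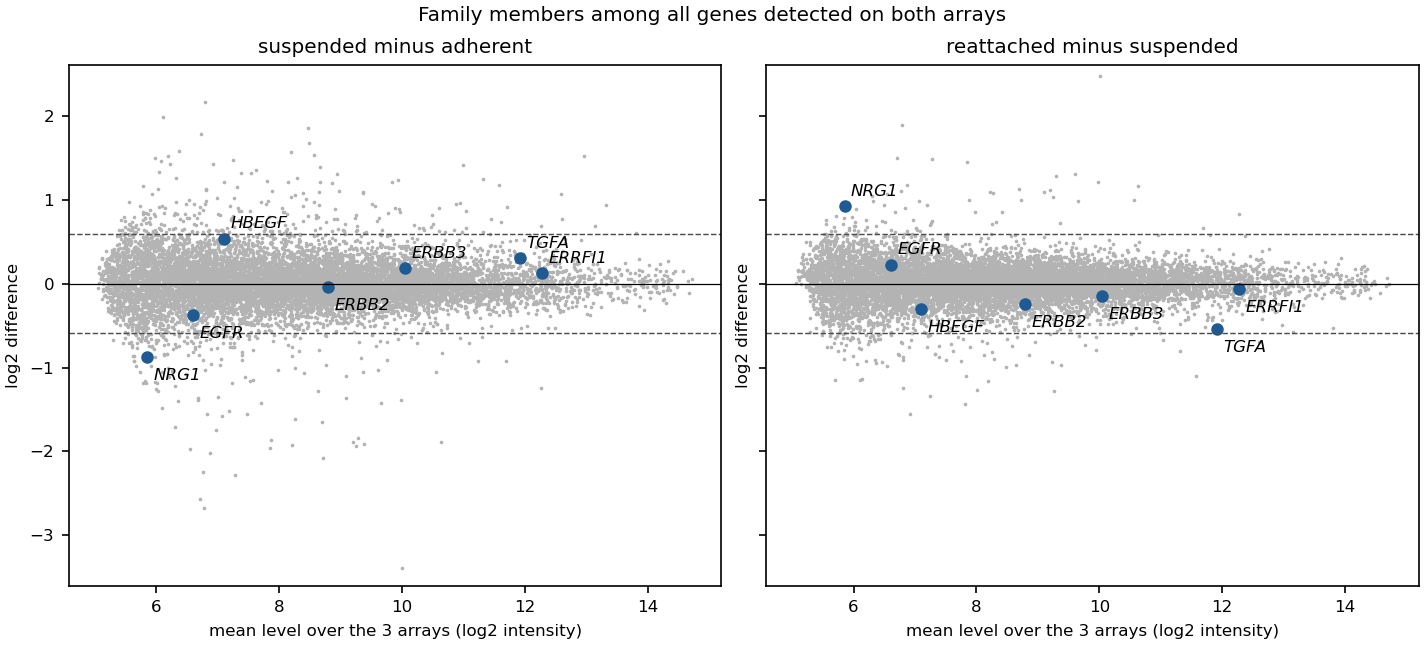
Log2 difference (vertical axis) against mean log2 level over the 3 arrays (horizontal axis) for all genes detected on both arrays (grey), with the family members in blue, for suspended minus adherent at left and reattached minus suspended at right; dashed lines mark 1.5-fold. NRG1 lies past the lines at a level where genes scatter widely, and TGFA, at -0.54 in the right panel, lies among bright genes that scatter little.

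The other genes of the pathway were followed in 6 lists, with 95 genes compared between suspended and adherent cells. Of these, 3 (3.16%) were 1.5-fold higher in suspended cells and 2 (2.11%) lower, shares near the 2.73% and 2.24% of all genes. For reattached minus suspended 0 of 96 reached 1.5-fold in either direction, and for reattached minus adherent 1 did, SH3GL2. None of the other receptor and ligand genes (ERBB4, EGF, BTC, NRG2, NRG3 and NRG4) was detected on any array. Of genes for shedding and maturation of ligands, 14 of 18 were compared between suspended and adherent cells, 9 above 0 and 5 below, with a median of 0.12. TMEFF1, a membrane protein with an EGF-like domain, was 1.78-fold higher, and the metalloprotease gene ADAM19 was 1.62-fold lower. TMEFF1 was dim, with log2 levels of 6.16 in suspended and 5.33 in adherent cells, near the adherent array's detection limit of 5.13. The chief sheddase genes for these ligands were nearly level by their brightest probes, ADAM17 at -0.10 and ADAM10 at 0.16. The rhomboid protease RHBDL2 gave 0.53 by its brightest probe and -0.28 by another. In reattached minus suspended cells the median was -0.06, 0 of 14 reached 1.5-fold, and FURIN, which trims precursor proteins, was lowest at -0.37.

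Partners at the membrane had a median of 0.01 for suspended minus adherent, 8 of 16 above 0. IGF1R, the insulin-like growth factor receptor, was not detected in adherent cells and was at least 1.71-fold higher in suspended cells, and it was 1.45-fold lower in reattached than in suspended cells. IGF1R was dim, with log2 levels of 5.90 in suspended and 5.37 in reattached cells, the latter just above the reattached array's detection limit of 5.29. The heparan sulphate carrier SDC1 was lower in suspended than in adherent cells (-0.36), and CD9, a tetraspanin known to bind the HBEGF precursor, stood at 0.17. Among adaptors and effectors, 0 of 20 compared genes reached 1.5-fold between suspended and adherent cells, with a median of 0.01. The docking adaptor GAB2 was lowest at -0.56 and the transcription factor STAT5B highest at 0.40.

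Genes of receptor turnover and negative regulation had a median of -0.04 for suspended minus adherent, 13 of 30 above 0. SH3GL2, which codes for endophilin A1 of endocytosis, was 2.43-fold lower in suspended than in adherent cells, 1.49-fold higher after reattachment than in suspension and 1.63-fold lower in reattached than in adherent cells. The phosphatase gene PTPRK, at -0.55, and the ubiquitin ligase gene CBLB, at 0.53, came next. For ERK pathway output the median was -0.08, 7 of 15 above 0. EGR1, an early transcription factor, was 1.93-fold higher in suspended than in adherent cells and its reattached minus suspended difference was -0.48. By their brightest probes, PHLDA1 (0.53 and -0.42), DUSP4 (0.51 and -0.47) and SPRY4 (0.49 and -0.26) gave the same signs. DUSP4 was dim, with log2 levels of 6.06 in suspended and 5.55 in adherent cells. Of the other SPRY4 probes, ILMN_1797596 gave 0.44 and -0.41, and ILMN_1688811, detected on 2 arrays, gave -0.13 and 0.23. Other output genes were lower in suspended cells, such as ETV4 (-0.34) and CCND1 (-0.31). Whether signals from this receptor family set any of these levels was not tested.

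**Figure D4:**
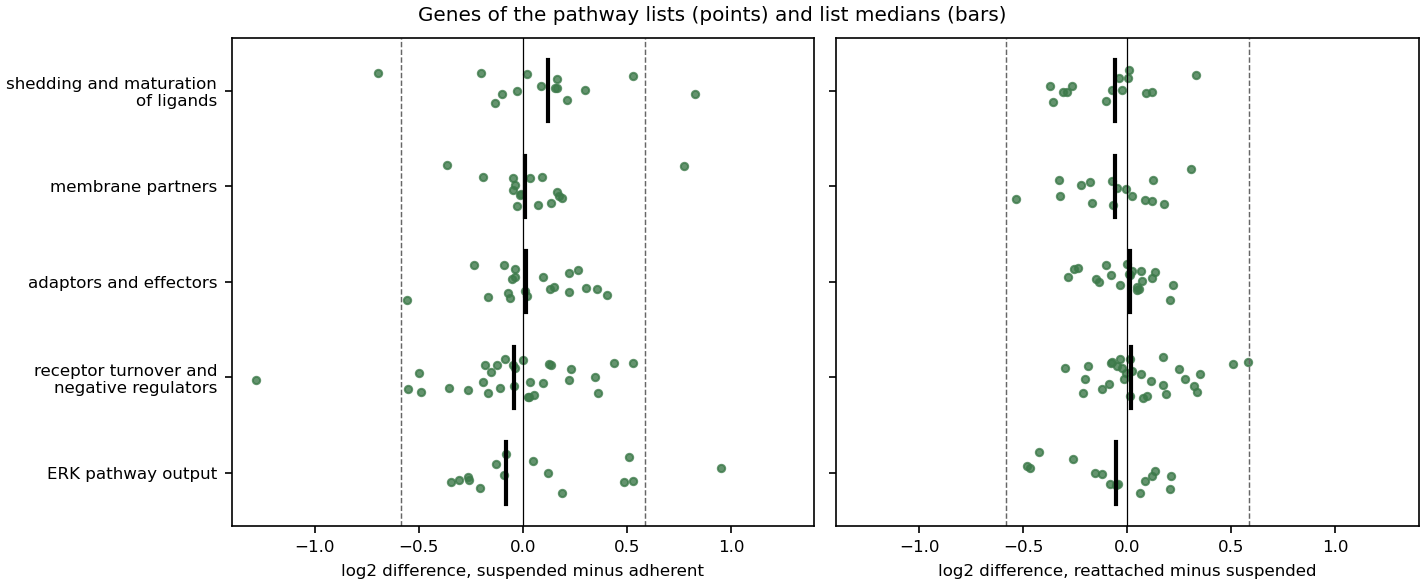
Log2 differences (horizontal axis) of the compared genes of 5 pathway lists (rows; each point is a gene, a thick bar the list median) for suspended minus adherent at left and reattached minus suspended at right; dashed lines mark 1.5-fold and the vertical scatter is for display. The median farthest from 0 is 0.12, and single genes such as SH3GL2 at -1.28 and EGR1 at 0.95 stand away from their lists.

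By the rule for likeness, the genes with the pattern closest to that of NRG1, the only member detected on all arrays with a range of 1.5-fold or more, were CALN1, PLK2 and PTPRF among 9985 genes detected on all 3 arrays. The measure was the Euclidean distance between centred log2 levels over the 3 arrays, at 0.10, 0.11 and 0.13. The phosphatase receptor gene PTPRF had log2 levels of 10.87 in reattached, 9.87 in suspended and 10.93 in adherent cells. With 3 arrays, likeness covers 3 values a gene.

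Markers of the cell type were set beside these results. Their sums are of scanner signals, not normalized between arrays, over the brightest probe of each gene, detected or not. The median scanner signal of all detected probes was 247 in reattached, 262 in suspended and 233 in adherent cells. For probes not detected it was 51.0, 53.3 and 50.9 in the same order. Of 12 melanocyte and melanoma markers with a probe, 7 were detected on all arrays, among them the lineage factors SOX10 and MITF, while PMEL, MLANA, TYR, TYRP1 and S100B were detected on none. The melanocyte list's summed signal was 7093 in reattached, 10097 in suspended and 6591 in adherent cells, highest in suspension as ERBB3, HBEGF and TGFA were. On normalized levels all 7 detected markers were higher in suspended than in adherent cells, with a median of 0.46. GPNMB (0.64) and CSPG4 (0.63) passed 1.5-fold there. All 7 were lower in reattached than in suspended cells, with a median of -0.37. The part of these markers in the ERBB3, HBEGF and TGFA results was not tested. Of 11 keratinocyte and epithelial markers, KRT14 and KRT8 were detected, in reattached and adherent but not in suspended cells, as for the second NRG1 probe, and were at least 1.99-fold and 1.92-fold lower in suspended than in adherent cells. CDH1, EPCAM and KRT5 were detected on no array. That list's summed signal was 609 in reattached, 599 in suspended and 662 in adherent cells, and its part in the NRG1 result was not tested. Of these sums KRT14 and KRT8 held 167, 132 and 207, and the rest came from probes not detected. Detected on any array were 3 of 9 fibroblast, 4 of 7 leukocyte and 1 of 5 endothelial markers, and the leukocyte gene PTPRC, the fibroblast genes COL1A1 and COL3A1 and the endothelial gene CDH5 were not detected on any. The leukocyte list's summed signal, on that scale, was 8538 in reattached, 9599 in suspended and 7431 in adherent cells. On normalized levels, 2 of its 4 compared genes lay above 0 for suspended minus adherent, with a median of 0.005. For reattached minus suspended 3 of 4 lay above 0, with a median of 0.07. Any part of these genes in the HBEGF and TGFA results was not tested. Of that list HLA-DRA, a class II histocompatibility gene, was bright, with log2 levels of 12.91 in reattached, 12.87 in suspended and 12.59 in adherent cells, and CD68, LYZ and CD14 were detected on all arrays too. The fibroblast list summed to 640 in reattached, 662 in suspended and 687 in adherent cells. Its proteoglycan genes LUM and DCN were detected on all arrays and were lowest in suspension as NRG1 was, at -0.42 and -0.31 for suspended minus adherent and 0.31 and 0.19 for reattached minus suspended, and their part in the NRG1 result was not tested. PDGFRA, the other detected gene of that list, differed between probes that were each detected on 1 array. Its measured suspended minus adherent differences were 0.53 on ILMN_2086470 and -0.60 on ILMN_1681949. The endothelial list summed to 255 in reattached, 274 in suspended and 278 in adherent cells.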

How the data were processed

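Per the labels' protocols, Trizol was used to extract RNA and an Ambion kit to label it as biotinylated cRNA. The authors deposited a scanner table with, for every probe, a linear signal intensity and a detection p-value on each array. Its intensity values are not normalized between arrays, and neither scanner software nor earlier background steps are stated in the sources used here. A table of the authors' normalized intensity values, deposited beside it, is linear and uncentred, has 1 distribution shared by all arrays (medians 58.1) and has background left in; it served as an alternative.

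The scanner table was background-corrected, quantile-normalized and put on the log2 scale with neqc of limma 3.58.1 (R 4.3.3), with negative controls inferred from the detection p-values and an offset of 16, which makes differences of dim genes smaller. Later steps used Python 3.11.15 with pandas 2.3.3, numpy 2.4.6 and, for figures, matplotlib 3.10.9. Of 47323 probes, 30113 had 1 gene symbol in the platform annotation, 17202 were unnamed here, and the 8 with several genes were left out. A gene was its detected probe with the highest mean level, compared where detected on at least 1 of the 2 arrays. A value not detected was raised to its array's detection limit (the level of the dimmest detected probe), and the gene was left out where no bound resulted. With 1 array per state, a gene was called at 1.5-fold and no p-value was computed. The comparison and calling steps were tested on simulated data, with changes well above 1.5-fold added to bright genes only. Changes near 1.5-fold, changes in dim genes and the normalization were not tested in this way.

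Named genes were all members with every probe, the 2 list genes with the largest differences in each comparison and any at 1.5-fold, and the 3 genes nearest to a member of 1.5-fold range, of which some are given; ADAM10, ADAM17, CD9, SOX10, MITF and further list genes were named after their values were seen. The members and lists were chosen with earlier results of these data known. Alternatives were the background left in, an offset of 50, median scaling, the authors' deposited values, a detection p-value under 0.05, no detection filter and the mean over probes. Signal over background and the number of arrays limit precision.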

Additional observations from a re-analysis of the deposited data

How the results depend on the processing

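Of the member differences recomputed under 7 alternatives, 147 kept their direction and side of 1.5-fold, or stayed under it, 6 dropped under it and 1 passed it. The 6 were NRG1 with the background left in, with an offset of 50 and with the authors' deposited values, settings that by construction keep or add a constant on each array, which shrinks differences of dim probes: suspended minus adherent gave -0.53, -0.53 and -0.53, and reattached minus suspended 0.55, 0.56 and 0.55. Under these 3 settings the count of members at 1.5-fold was 0 in both comparisons, against 1. Without a detection filter EREG passed 1.5-fold (0.63) and 1 member was higher in suspended than in adherent cells, against 0. With the mean over probes NRG1 changed sign for reattached minus adherent, from 0.04 to -0.12, staying under 1.5-fold. Over all genes at 1.5-fold, in the order background left in, offset of 50 and authors' values, suspended against adherent gave 156, 158 and 149 higher (298 in the setting used) and 115, 116 and 113 lower (245). Reattached against suspended gave 39, 39 and 39 higher (88) and 57, 57 and 53 lower (117). Reattached against adherent gave 30, 31 and 22 higher (96) and 41, 41 and 40 lower (119). Without a detection filter, which admits 20046 genes, reattached against suspended gave 170 higher and 209 lower, and reattached against adherent 206 higher and 241 lower. HBEGF kept a difference of 0.42 to 0.53 for suspended minus adherent over all settings, TGFA -0.54 to -0.45 for reattached minus suspended, and EGFR -0.38 to -0.21 for suspended minus adherent. No paired analysis was possible because each state had 1 array, and no replicate could be left out.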
